A study of Rattus norvegicus and Homo sapiens with 12 samples.

Results

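R-spondin 3 (RSPO3) and 9 genes that receive, limit or read out its signal were examined in DU145, a human prostate cancer cell line, before and after selection with conditioned media (CM) of human MSCs. These 10 genes, out of 60107 listed human genes, are the ligand RSPO3, the receptors LGR4, LGR5 and LGR6, the E3 ligases RNF43 and ZNRF3, the transcription factors TCF7 and LEF1, and the inhibitors AXIN2 and DKK1. They were matched to the count table by Ensembl identifier. RSPO3 had been picked because its level differed between F2 and F0, and the others because they belong to its pathway, so the F2 against F0 values of the 10 genes are given as a description and no p-value is printed for them. F0 DU145 is the parental line, labelled Parental, and F2 DU145 is the population labelled MSC Educated, with 3 libraries of each. F2 cells had been kept in MSC CM for 72 h per round, in 2 rounds by the sample labels and 3 by the text deposited with the series, with 48 h of recovery in complete media between rounds. Both populations are the same line in DMEM with fetal bovine serum, and neither label names a transgene or a further agent. The sources do not say whether the 3 F2 samples came from separate selections, so n, SD and p describe the spread between these samples, which may be technical.

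Wnt ligands bind Frizzled receptors and the co-receptors LRP5 and LRP6, which stops the destruction complex of AXIN, APC and GSK3 from degrading β-catenin, and β-catenin then activates genes together with TCF and LEF factors. The E3 ligases RNF43 and ZNRF3 remove Frizzled from the cell surface, and R-spondins, by bringing an LGR receptor and one of these ligases together, spare Frizzled and raise the response to Wnt. AXIN2, RNF43, ZNRF3, LGR5, TCF7, LEF1 and DKK1 are known targets of the pathway in many tissues, and several of them restrain it. In bone, R-spondins, Wnt ligands and DKK1 from stromal and tumor cells are known regulators of osteoblasts.

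RNA QuantSeq reads 1 fragment near the polyadenylated end of each transcript, so levels of different genes are compared below as CPM (counts scaled to a common library size, normalized by the TMM method) without division by length. Counts assigned to genes lay between 15879480 and 16479239 per library, so a gene with 0 counts in 1 library may lie anywhere under 0.177 to 0.195 CPM, the level of 3 counts. Such floors cover counting error only. Mitochondrially encoded genes took 5.71% to 6% of gene counts in F0 and 10.2% to 10.6% in F2. All 6 epithelial markers (KRT8, KRT18, KRT7, KRT19, EPCAM and CDH1) were detected in every library, at a summed level of 1640 to 1700 CPM in F0 and 1830 to 1860 CPM in F2. They did not move together, as CDH1 (E-cadherin) fell from 14 ± 1.79 to 5.78 ± 0.0915 CPM (adjusted p = 7.6e-07 from edgeR) and KRT7 from 603 ± 8.64 to 511 ± 10.9 CPM (adjusted p = 3.2e-04 from edgeR), while KRT19 rose from 255 ± 15.8 to 405 ± 13.4 CPM (adjusted p = 8.9e-09 from edgeR), and KRT8, KRT18 and EPCAM also rose. Of 16 MSC and fibroblast markers, THY1, VCAM1, CXCL12, LUM, POSTN and SPARC had 0 counts in all 6 libraries. The summed level of the 16 was 158 to 178 CPM in F0 and 223 to 241 CPM in F2, and without NT5E, at 158 ± 9.49 (F0) and 222 ± 10.3 CPM (F2), it was 10.6 to 11.8 and 7.33 to 8.57 CPM. The part of RNA from MSCs in the values below was otherwise not tested.

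RSPO3 (ENSG00000146374, plus strand of chromosome 6, 127118604 to 127197765 in GRCh38) encodes the secreted ligand. Its level was 36.6, 36 and 33.7 CPM in the F0 libraries and 13.4, 13.1 and 9.76 CPM in the F2 libraries, from 569 to 619 counts in F0 and 153 to 210 in F2. The populations lay far apart, and F2 replicate 3 was the lowest of the 6 libraries. The mean went from 35.4 ± 1.54 to 12.1 ± 2.02 CPM (SD, n = 3 each), so that 34.1% of the F0 level was left in F2. The log2 fold change was -1.55 (standard error 0.10) and lay between -1.63 and -1.42 when each library was left out in turn. Among all tested genes, 66% had a lower level than RSPO3 in F0 and 43.1% in F2. In bulk RNA, fewer cells with RSPO3 and less RSPO3 RNA per cell cannot be told apart. RSPO3 was the 1 R-spondin gene with an appreciable level. RSPO1 had 0 counts in all libraries, RSPO2 averaged 0 in F0 and 0.0213 CPM in F2, and RSPO4 stood at 0.159 ± 0.0356 (F0) and 0.257 ± 0.170 CPM (F2).

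**Figure D1:**
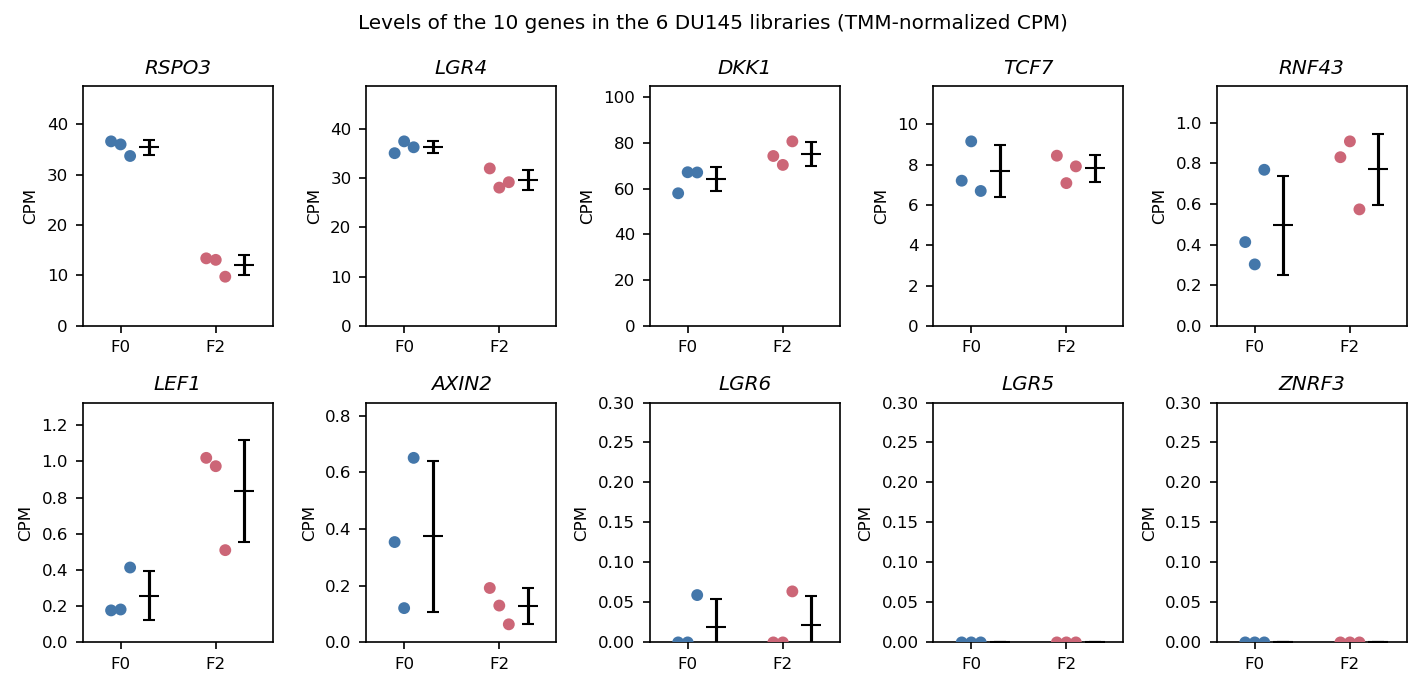
Level of each of the 10 genes (vertical axes, TMM-normalized CPM from 0, a scale of its own for each gene) in the 3 F0 (blue) and 3 F2 (red) DU145 libraries, with the mean and SD in black. RSPO3 went from 35.4 to 12.1 CPM and LGR4 from 36.3 to 29.7 CPM, DKK1 had 58 CPM or more in every library, and LGR5 and ZNRF3 are at 0 throughout.

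Among the receptors, LGR4 (ENSG00000205213, minus strand of chromosome 11, 27365961 to 27472775) was the only one with more than single counts. It had 35.1, 37.5 and 36.3 CPM in F0 and 32.0, 28.1 and 29.2 CPM in F2. All F2 libraries were below all F0 libraries, by a narrow margin. The mean went from 36.3 ± 1.21 to 29.7 ± 2.01 CPM (SD, n = 3 each). The log2 fold change was -0.29 (standard error 0.074). Without 1 library it ranged from -0.34 to -0.25, and when libraries were scaled by their size alone it was -0.38. LGR5 (ENSG00000139292, chromosome 12, 71439770 to 71586310), a marker of intestinal stem cells, had 0 counts in all 6 libraries, which allows up to 0.0596 CPM over the F0 libraries and 0.0642 CPM over the F2 libraries. LGR6 (ENSG00000133067, chromosome 1, 202193901 to 202319781) had 1 count in F0 replicate 3, 1 count in F2 replicate 3 and 0 in the others. LGR5 and LGR6 were thus at or under the floor in both populations, and no difference was detectable at this depth.

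RSPO3 and LGR4 stood at about the same level in F0 and apart in F2. The ratio of RSPO3 to LGR4 within a library was 1.04, 0.960 and 0.927 in F0 and 0.420, 0.465 and 0.334 in F2, or 0.976 ± 0.0581 and 0.406 ± 0.0666 (SD, n = 3 each). In the order of levels in F0, DKK1 came first, then LGR4 and RSPO3, which overlapped, then TCF7. After these came RNF43, which overlapped AXIN2, and AXIN2, which overlapped LEF1. LEF1 did not overlap LGR6, the next in order, and LGR6, LGR5 and ZNRF3 were at or near 0. In F2 the order was DKK1, LGR4, RSPO3 and TCF7 with no overlap between neighbours, then LEF1 and RNF43, which overlapped, then AXIN2, which overlapped LGR6, and last LGR5 and ZNRF3.

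The E3 ligases that R-spondins inhibit had few counts or none. RNF43 (ENSG00000108375, minus strand of chromosome 17, 58352500 to 58417595) had 7, 5 and 13 counts in F0 and 13, 14 and 9 in F2, or 0.495 ± 0.244 and 0.771 ± 0.175 CPM (SD, n = 3 each). The populations overlapped. Among tested genes, 0.587% had a lower level in F0, a rank that leaves out all genes removed by the filter on low counts. The log2 fold change was 0.63 (standard error 0.44), and ranged from 0.38 without F0 replicate 2 to 1.09 without F0 replicate 3. An exon of RNF43 overlaps an exon of SUPT4H1 on the same strand in GENCODE release 29, so reads there can be counted for neither gene. ZNRF3 (ENSG00000183579, plus strand of chromosome 22, 28883592 to 29057487) had 0 counts in all 6 libraries, with the same upper limits as LGR5.

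The neighbours of ZNRF3 were looked up after its counts were seen. Of 19628 listed protein-coding genes, 23.1% had 0 counts in all 6 libraries. Within 0.5 Mb of ZNRF3 it was 4 of 18, with ZNRF3 itself among the 4. The next protein-coding genes downstream of ZNRF3, C22orf31 at a distance of 1185 bases and KREMEN1 at 15591 bases, also had 0 counts in all 6 libraries. KREMEN1 (29073078 to 29168333) encodes a DKK1 receptor and thus a further inhibitor of the pathway. On either side of these 3 genes RNA was counted, with 62.4 ± 3.02 CPM in F0 and 56.8 ± 1.49 CPM in F2 for XBP1, a transcription factor of the unfolded protein response, and 2.62 ± 0.182 and 2.81 ± 0.650 CPM for EMID1. XBP1 and EMID1 are 0.405 Mb apart. Of the 11 genes listed wholly between them, 8 were not protein-coding, so the 23.1% above is not their background. Among the 11, 7 had 0 counts. Of all 60107 listed genes, 25426 had at least 1 count in the 6 libraries together, so most listed genes were at 0 too. ZNRF3-AS1, an antisense RNA within the ZNRF3 gene, had 80 counts over the 6 libraries. LGR5 has ZFC3H1 as its next downstream coding gene, at 43.7 ± 4.41 (F0) and 46.6 ± 3.96 CPM (F2). A count of 0 says only that no read was assigned to the gene, and why ZNRF3 and KREMEN1 were at 0 was not tested.

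**Figure D2:**
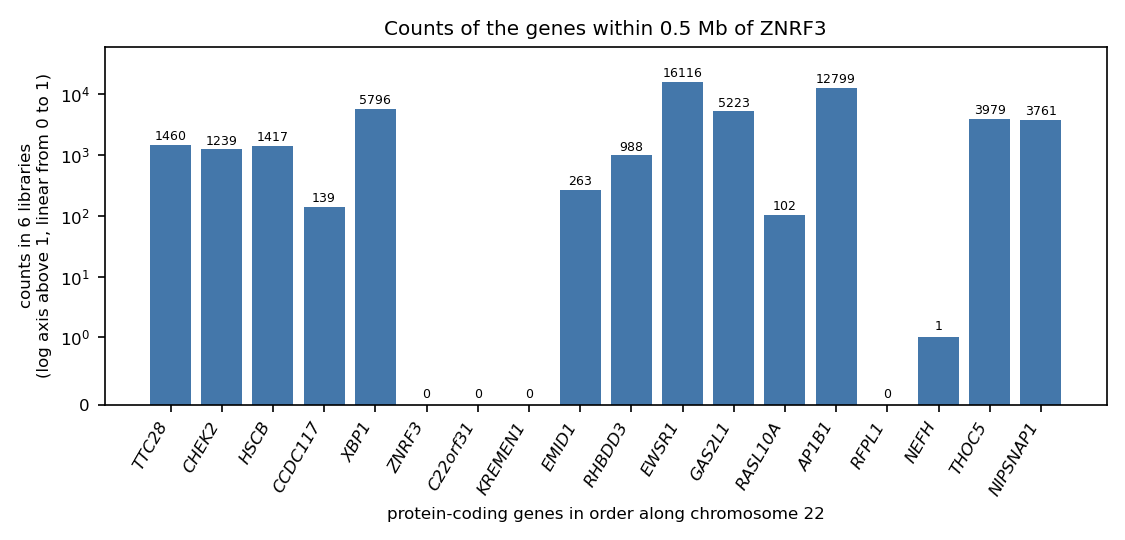
Counts summed over the 6 DU145 libraries (vertical axis, logarithmic above 1 count and linear below it) for the 18 protein-coding genes within 0.5 Mb of ZNRF3, in their order along chromosome 22. ZNRF3, C22orf31 and KREMEN1 have 0 counts in a row, between XBP1 with 5796 and EMID1 with 263, and RFPL1 is also at 0.

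Of the inhibitors among the 10 genes, DKK1 (ENSG00000107984, plus strand of chromosome 10, 52314296 to 52318042), which blocks LRP5 and LRP6, was the most abundant of the 10 in both populations. It had 58.0, 67.2 and 67.1 CPM in F0 and 74.3, 70.4 and 80.7 CPM in F2. The F2 libraries were above the F0 libraries, though F2 replicate 2 was close to the highest F0 library. The mean went from 64.1 ± 5.28 to 75.1 ± 5.21 CPM (SD, n = 3 each). The log2 fold change was 0.23 (standard error 0.067), ranged from 0.16 to 0.28 without 1 library and was 0.14 with library size alone. An exon of DKK1 overlaps PRKG1-AS1 on the other strand, and the handling of strand in the counting is not given in the sources used here. The ratio of DKK1 to RSPO3 within a library was 1.81 ± 0.204 in F0 and 6.40 ± 1.62 in F2. AXIN2 (ENSG00000168646, minus strand of chromosome 17, 65528563 to 65561647), a destruction complex scaffold whose RNA is a common readout of β-catenin activity, had 6, 2 and 11 counts in F0 and 3, 2 and 1 in F2. Its mean level was 0.375 ± 0.266 CPM in F0 and 0.128 ± 0.0640 CPM in F2, and the populations overlapped at this low depth. An exon of AXIN2 overlaps AC004805.1 on the same strand.

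The transcription factors differed in level. TCF7 (ENSG00000081059, plus strand of chromosome 5, 134114711 to 134151865) had 7.20, 9.15 and 6.69 CPM in F0 and 8.44, 7.08 and 7.91 CPM in F2. The populations overlapped. The log2 fold change was 0.03 (standard error 0.14), and -0.06 with library size alone. An exon of TCF7 overlaps an exon of SKP1 on the other strand. LEF1 (ENSG00000138795, minus strand of chromosome 4, 108047545 to 108168956) had 3, 3 and 7 counts in F0 and 16, 15 and 8 in F2, or 0.258 ± 0.136 and 0.836 ± 0.283 CPM. All 3 F2 libraries were above all 3 F0 libraries, on few counts, and F2 replicate 3 was only 1 count above F0 replicate 3. An exon of LEF1 overlaps LEF1-AS1 on the other strand. The factors outside the 10 genes were more abundant, above all TCF7L2, described below with the rest of the pathway.

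RSPO3, LGR4, RNF43, DKK1 and TCF7 passed the filter on low counts and the other 5 did not. In the fit over all 14316 tested genes, 18.2% were past an adjusted p of 0.05, and RSPO3, LGR4 and DKK1 were among them. DKK1 was not among them without F0 replicate 1, F2 replicate 1 or F2 replicate 3, nor with library size alone, and LGR4 was not without F0 replicate 2. LEF1 was counted in addition without a filter, without F0 replicate 3 and without F2 replicate 3. The 3 F2 libraries lay wholly on one side of the 3 F0 libraries for RSPO3, LGR4 and DKK1, as for 34% of all tested genes, and also for LEF1, which was not tested. RSPO3 alone was both past the threshold and at least 2-fold different, as were 1.67% of all tested genes. Nothing is read from these counts, because RSPO3 had been chosen on this contrast and 5 of the 10 genes were not tested.

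The genes around RSPO3 on chromosome 6 were examined after the values were known, to see whether they shared its difference. Within 2 Mb, 11 other genes were tested. The nearest, RNF146 at 68845 bases and ECHDC1 at 90945 bases, had log2 fold changes of 0.07 (adjusted p = 0.74 from edgeR) and -0.05 (adjusted p = 0.65 from edgeR). RNF146 is itself a part of the pathway, as its E3 ligase product marks AXIN for degradation. On the other side, CENPW at -769729 bases (negative distances are toward lower coordinates) had 46.6 ± 3.11 CPM before and 46.8 ± 1.24 CPM after selection. Farther out, 3 genes fell in F2, namely NCOA7 from 115 ± 8.12 to 70.8 ± 1.3 CPM (log2 fold change -0.70, adjusted p = 4.1e-08 from edgeR), HINT3 from 23.3 ± 1.91 to 14.9 ± 1.61 CPM (-0.65, adjusted p = 1.2e-04 from edgeR) and HEY2, a Notch target, from 1.17 ± 0.121 to 0.515 ± 0.198 CPM (-1.18, adjusted p = 0.038 from edgeR). These 3 lie at -1357335 to -1138360 bases. None of the 11 rose past the threshold, and over all tested genes 8.67% fell and 9.49% rose. The median log2 fold change of the 11 was -0.05. That of all 707 tested genes of chromosome 6 other than RSPO3, these 11 included, was 0.046.

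**Figure D3:**
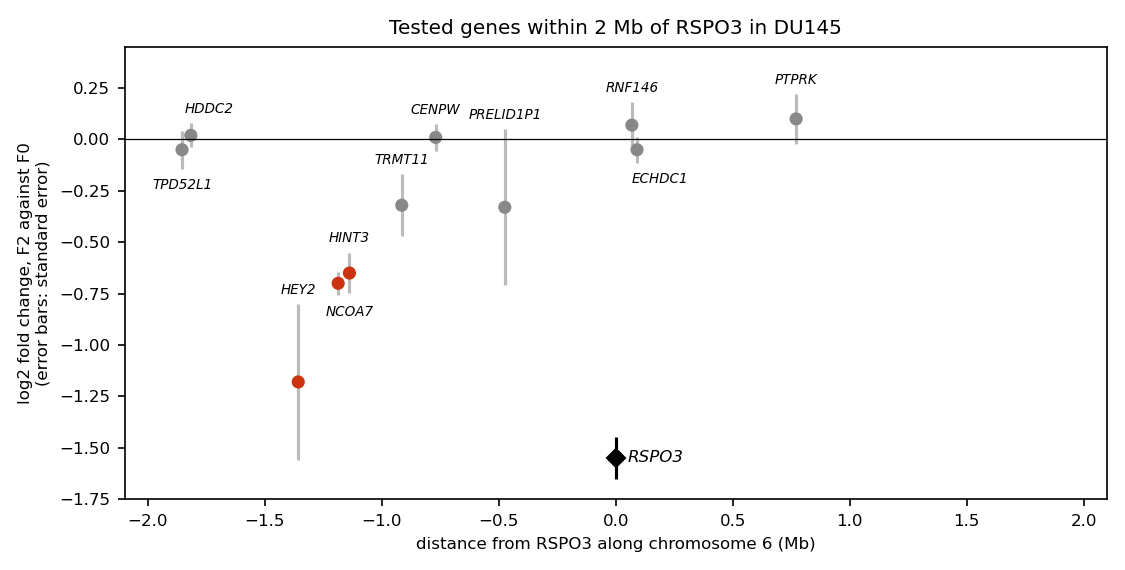
Log2 fold change of F2 against F0 DU145 (vertical axis, bars give the standard error) of RSPO3 (black) and of the 11 other tested genes within 2 Mb, by their distance from RSPO3 along chromosome 6 in Mb (horizontal axis). Genes with an adjusted p under 0.05 are red. RNF146 and ECHDC1, next to RSPO3, are near 0, and HEY2, NCOA7 and HINT3 lie lower, more than 1 Mb away.

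The genes whose pattern over the 6 libraries was most like that of RSPO3 were sought among 13261 genes with a mean of at least 1 CPM, by the root mean square difference of their log2 CPM after each gene was centred on its own mean. The closest were NPW (0.136), LONRF2 (0.165), ELF3 (0.166), DHRS3 (0.169) and KCNK15 (0.174), where the median gene was at 0.800. NPW encodes a neuropeptide, ELF3 an epithelial transcription factor, DHRS3 a retinal reductase and KCNK15 a potassium channel protein. Their means in F0 and F2 were 7.17 ± 0.466 and 2.23 ± 0.0535 CPM for NPW, 15.4 ± 0.549 and 6.36 ± 1.06 CPM for LONRF2, and 14.3 ± 1.25 and 5.22 ± 0.2 CPM for ELF3. DHRS3 was at 25.7 ± 1.08 and 9.05 ± 0.177 CPM, and KCNK15 at 19.5 ± 1.06 and 7.66 ± 0.620 CPM. Of the other members with enough counts to be measured, LGR4 was at 0.65, TCF7 at 0.82, DKK1 at 0.92 and RNF43 at 1.13. The measure mostly reflects the step between the populations, since the libraries of a population differed little.

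**Figure D4:**
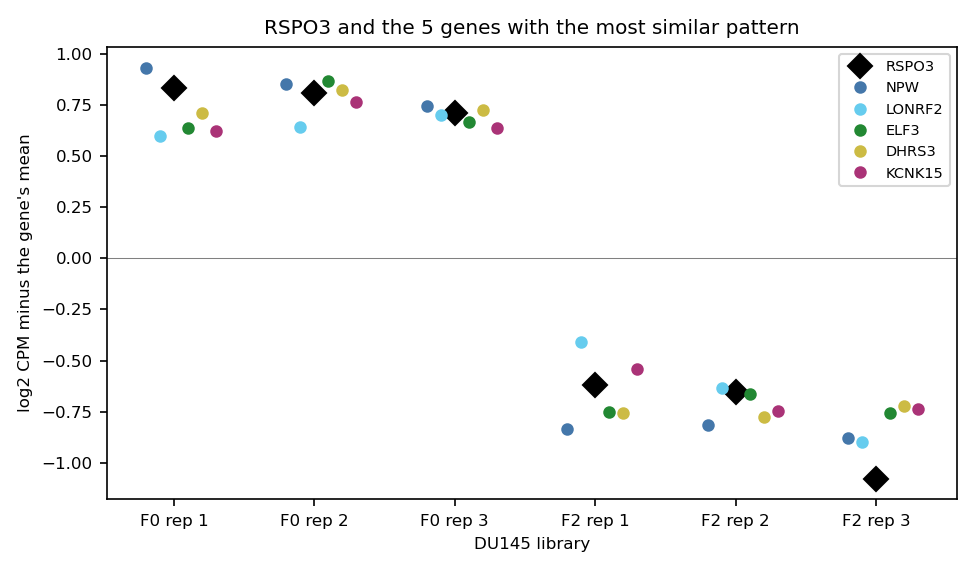
Log2 CPM minus the mean of the gene (vertical axis) in each of the 6 DU145 libraries (horizontal axis) for RSPO3 (black) and the 5 genes with the most similar pattern (colours), points of a library set side by side for legibility. All 6 genes were above their mean in the F0 libraries and below it in the F2 libraries.

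To set the 10 genes in their pathway, 96 further Wnt pathway genes were listed by role. Earlier results of these data were known when the lists were made. Of these, 64 had enough counts to be tested and 13 had 0 counts in all libraries. Past the threshold were 17 of the 64 (26.6%), 10 lower and 7 higher in F2, where the share over all tested genes was 18.2%, with 8.67% lower and 9.49% higher. The median log2 fold change of the 64 was -0.05, against -0.0025 over all tested genes. When libraries were scaled by their size alone, 18 pathway genes were lower and 5 higher, or 78.3% lower in place of 58.8%, and the share of lower genes over the whole table moved from 47.7% to 77.1%. The count of lower pathway genes was 6 without F0 replicate 2 and 6 without F2 replicate 1. For the whole table, 2599 genes were past the threshold, and 1670 without F0 replicate 2.

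Of 19 Wnt ligand genes, 8 were tested and 1 fell. WNT7B, a ligand of epithelia, was the most abundant, with 62.8, 60.8 and 51.8 CPM in F0 and 59.0, 61.6 and 57.6 CPM in F2. It made up 61.6% ± 3.91 of the summed Wnt ligand level in F0 and 62.1% ± 1.12 in F2 (SD, n = 3 each), and its log2 fold change was 0.02 (standard error 0.069, adjusted p = 0.87 from edgeR). WNT5B was next, with 20.3 ± 2.29 and 20.0 ± 0.288 CPM. The summed level of all 19 genes was 94.9 ± 6.67 CPM in F0 and 95.6 ± 1.69 CPM in F2, with overlap. WNT10A fell from 1.09 ± 0.0810 to 0.470 ± 0.145 CPM (log2 fold change -1.20, adjusted p = 0.035 from edgeR), on 17 to 20 counts in F0 and 6 to 10 in F2. Among the fits that each left out 1 library, only that without F2 replicate 3 kept WNT10A past the threshold, and the others gave values from -1.24 to -1.07. WLS, which carries Wnt ligands to the cell surface, was at 22.3 ± 1.09 and 25.2 ± 1.88 CPM, and neither it (adjusted p = 0.16 from edgeR) nor PORCN, which acylates them, passed the test.

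Of 10 Frizzled genes, 8 were tested and 1 fell. FZD6 (chromosome 8, 103298433 to 103332866) had 79.9, 84.1 and 87.4 CPM in F0 and 69.8, 69.5 and 66.9 CPM in F2, so all F2 libraries were lower. It fell from 83.8 ± 3.73 to 68.8 ± 1.57 CPM (log2 fold change -0.29, standard error 0.055, adjusted p = 9.7e-04 from edgeR). FZD6 made up 61.6% ± 0.784 of the summed Frizzled level in F0 and 57.8% ± 1.04 in F2. That sum went from 136 ± 7.16 to 119 ± 2.41 CPM. Among 6 co-receptor genes, 5 were tested and 2 fell. PTK7, a receptor-like protein, fell from 44.0 ± 1.04 to 34.7 ± 2.29 CPM (log2 fold change -0.34, adjusted p = 0.0015 from edgeR). LRP6, the Wnt co-receptor that DKK1 binds, fell from 36.7 ± 1.03 to 30.5 ± 2.38 CPM (log2 fold change -0.27, adjusted p = 0.016 from edgeR). The call of LRP6 was lost without F0 replicate 2 (-0.26), F0 replicate 3 (-0.25), F2 replicate 1 (-0.25) or F2 replicate 2 (-0.22). ROR1, the most abundant co-receptor, was at 46.4 ± 0.277 and 51.3 ± 3.14 CPM (adjusted p = 0.13 from edgeR). ROR2 was not tested, with 6, 4 and 6 counts in F0 and 0 in each F2 library.

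Of 15 other secreted or membrane inhibitors, 4 were tested, of which 2 fell and 1 rose. SFRP1, a secreted decoy for Wnt, was the most abundant, with 86.0% ± 0.415 of the summed level of these inhibitors in F0 and 83.8% ± 0.572 in F2. It fell from 46.1 ± 0.792 to 38.8 ± 1.86 CPM (log2 fold change -0.25, adjusted p = 0.010 from edgeR), a call lost without F0 replicate 2 (-0.24). KREMEN2 (chromosome 16, 2963944 to 2968383), the paralog of KREMEN1, fell from 2.86 ± 0.269 to 1.29 ± 0.473 CPM (log2 fold change -1.15, standard error 0.27, adjusted p = 0.0059 from edgeR). With KREMEN1 at 0 throughout, it was the only DKK1 receptor of the Kremen pair that was detected. DKK3, a relative of DKK1 that does not bind the same co-receptors, rose from 2.88 ± 0.453 to 4.73 ± 1.17 CPM (log2 fold change 0.71, adjusted p = 0.021 from edgeR). The call of DKK3 was lost without F0 replicate 3 (0.60) or F2 replicate 3 (0.50). DKK2 and DKK4 had 0 counts in all libraries.

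All 15 genes of signal relay and the destruction complex were tested, and 1 of them rose. DVL3, which binds activated Frizzled, went from 46.8 ± 1.97 to 54.3 ± 4.13 CPM (log2 fold change 0.21, adjusted p = 0.033 from edgeR). With 1 library left out the call held only without F2 replicate 1, the other values being 0.16 to 0.25, and it was lost with library size alone (0.12, adjusted p = 0.20 from edgeR). CSNK1A1, a kinase that primes β-catenin for degradation and the most abundant of these genes, was at 261 ± 19.3 and 279 ± 9.72 CPM (adjusted p = 0.24 from edgeR), and passed the threshold without F0 replicate 1 (0.15, adjusted p = 0.046 from edgeR). CTNNB1, which encodes β-catenin, was at 156 ± 5.53 (F0) and 148 ± 6.12 CPM (F2) (log2 fold change -0.08, adjusted p = 0.29 from edgeR). CTNNB1 was named after its value was seen. The summed level of the 15 genes was 853 ± 21.7 CPM in F0 and 853 ± 14.2 CPM in F2.

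All 11 nuclear factors were tested, of which 3 fell and 2 rose. TLE4 (chromosome 9, 79571773 to 79726882), a corepressor that TCF factors recruit, had 73.9, 77.3 and 76.1 CPM in F0 and 43.5, 47.7 and 50.1 CPM in F2. It fell from 75.8 ± 1.73 to 47.1 ± 3.33 CPM, with wide separation (log2 fold change -0.69, standard error 0.062, adjusted p = 1.5e-07 from edgeR). CTNNBIP1 (chromosome 1, 9848276 to 9910336), whose product keeps β-catenin from TCF factors, had 29.7, 28.6 and 30.9 CPM in F0 and 40.4, 42.8 and 43.5 CPM in F2. It rose from 29.7 ± 1.18 to 42.2 ± 1.61 CPM (log2 fold change 0.51, standard error 0.069, adjusted p = 3.2e-05 from edgeR). Both calls held whichever library was left out.

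An exon of TLE4 overlaps one of AL353813.1 on the same strand, so reads there can be counted for neither gene. Exons of CTNNBIP1, FZD6, KREMEN2, TCF7L2, CCND1 and CD44 overlap genes on the other strand. How reads there were assigned depends on the handling of strand and the annotation used in the counting, which are not given in the sources used here.

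Other corepressors moved in different directions. TLE3 rose from 17.2 ± 1.79 to 22.8 ± 2.67 CPM (log2 fold change 0.41, adjusted p = 0.0088 from edgeR), a call lost without F2 replicate 1 (0.31). TLE2 fell from 20.2 ± 1.93 to 16.3 ± 1.15 CPM (-0.31, adjusted p = 0.034 from edgeR), a call lost without F0 replicate 1 (-0.29), F0 replicate 2 (-0.25), F2 replicate 1 (-0.34) or F2 replicate 3 (-0.25). TCF7L2, the most abundant TCF gene, fell from 113 ± 5.29 to 99.4 ± 1.81 CPM (-0.18, adjusted p = 0.019 from edgeR), a call lost without F0 replicate 1 (-0.16), F0 replicate 3 (-0.16), F2 replicate 1 (-0.19) or F2 replicate 3 (-0.17). BCL9L, a β-catenin coactivator and the most abundant nuclear factor, was at 189 ± 12 and 207 ± 27.4 CPM (adjusted p = 0.22 from edgeR).

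Of 15 other genes known as targets of the pathway, 11 were tested, of which 3 rose and 1 fell. CD44 (chromosome 11, 35138870 to 35232402), a hyaluronan receptor, had 150, 134 and 144 CPM in F0 and 225, 217 and 225 CPM in F2. It rose from 143 ± 7.77 to 222 ± 4.50 CPM (log2 fold change 0.64, standard error 0.049, adjusted p = 1.7e-08 from edgeR). FOSL1, an AP-1 subunit, rose from 125 ± 5.59 to 160 ± 9.40 CPM (log2 fold change 0.36, adjusted p = 7.2e-05 from edgeR). CCND1, which encodes cyclin D1 and was the most abundant of these genes, rose from 271 ± 2.24 to 306 ± 2.90 CPM (log2 fold change 0.18, adjusted p = 0.0050 from edgeR). With library size alone CCND1 was not past the threshold (0.09, adjusted p = 0.12 from edgeR). SLC12A2, an ion cotransporter, fell from 39.1 ± 1.56 to 30.5 ± 0.880 CPM (log2 fold change -0.36, adjusted p = 0.0011 from edgeR). These 3 rising genes also respond to other pathways. SP5 and EPHB3 were named after their values were seen. SP5 was at 3.10 ± 0.286 CPM before and 4.39 ± 0.328 CPM after selection (adjusted p = 0.061 from edgeR). EPHB3 went the other way, from 4.93 ± 0.867 to 3.29 ± 1.19 CPM (adjusted p = 0.079 from edgeR). Of the 11 tested targets, 6 had a negative log2 fold change and 5 a positive one.

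**Figure D5:**
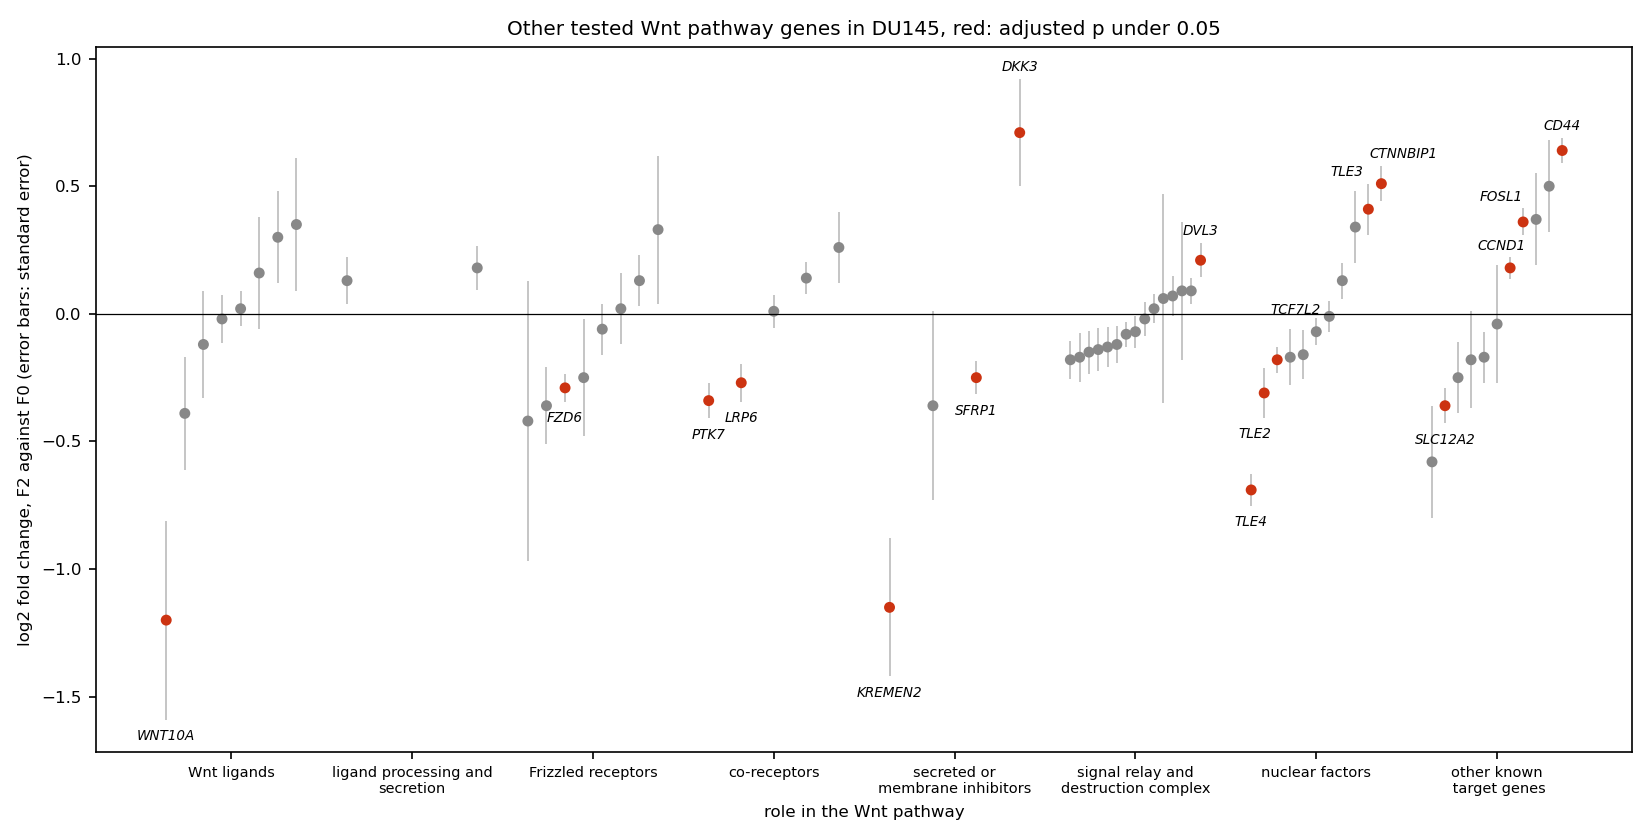
Log2 fold change of F2 against F0 DU145 (vertical axis, bars give the standard error) of the 64 tested Wnt pathway genes outside the 10, grouped by role (horizontal axis), with the 17 at an adjusted p under 0.05 in red and named. Genes past the threshold lie on both sides of 0, 10 lower and 7 higher, with TLE4 at -0.69 and CD44 at 0.64.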

How the data were processed

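RNA QuantSeq libraries of 3 F0 and 3 F2 DU145 samples were used, each from 500 ng of RNA and read as single ends of 101 bases. Alignment and counting were done by the authors with a Bluebee pipeline, and the deposited values are raw counts of reads per gene. The submitters' processing notes name STAR 2.5.2a, HTSeq 0.6.0 and GRCh38, and the annotation is not given in the sources used here. Lines that name no gene stayed out of library sizes and tests, and reads outside genes were 9.60% to 11.9% of uniquely placed reads. Reads with several alignments, 0.536 to 0.624 per gene count, were not assigned to genes. PCR duplicates remain in the counts.

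With R 4.3.3, genes were filtered by filterByExpr (minimum count 10, minimum total 15), scaled by TMM and tested in edgeR 4.0.16 (quasi-likelihood F-test, F2 against F0, no covariates, two-sided, Benjamini-Hochberg over all tested genes, threshold 0.05). For single genes, an exact permutation test of 3 against 3 cannot go below 0.1. The alternatives were other scalings and filters, a replicate block, each library left out, DESeq2 1.42.0 and, added after the data were seen, leaving out mitochondrially encoded genes. The fit was tested on simulated data. No pair of libraries was a duplicate. Positions come from GENCODE release 29. The 10 genes and the pathway lists were chosen with earlier results of these data known. Named are the 10 genes, pathway genes past the threshold, the most abundant tested gene of each role and the 5 genes most like RSPO3. Others were chosen after their values were seen. The rat PAIII table was not used here, because 0 of its identifiers could be paired with symbols from the reference, so the orthologs in PAIII were not tested.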

Additional observations from a re-analysis of the deposited data

How the results depend on the processing

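The count of Wnt pathway genes past the threshold, 17 as reported, was 23 with library size alone, 14 with DESeq2 and 12 to 15 without 1 library. The lower genes among them, 10 as reported, were 18 with library size alone and 6 to 9 without 1 library, and the higher genes 5 to 7. Without 1 library, the count over the whole table was 1670 to 2621, and that among the 10 genes 2 to 4. With the replicate number as a block the whole table gave 2867 genes and the pathway lists 18. The numbers did not pair the libraries (correlations of deviations 0.010, -0.010 and 0.029 for numbers 1, 2 and 3). Leaving out the mitochondrially encoded genes gave 2588 and 17. With DESeq2, WNT10A (adjusted p = 0.12), DVL3 (0.055) and TLE2 (0.064) were not past the threshold, and WNT10A was also not past it without a filter (0.052, edgeR). No value changed direction among the genes past the threshold. RSPO3 lay between -1.64 and -1.42 over all settings. At this depth, RNF43, AXIN2, LEF1 and LGR6 rest on at most 16 counts a library, which limits what can be said of them. The alternatives planned for PAIII were not run.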
